A study of Mus musculus with 6 samples.

Results

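The Hox genes of clusters A to D were measured in newborn mouse collecting duct cells that carried or lacked Bdkrb2, which encodes the B2 receptor for bradykinin. The members were 38 genes chosen by symbol, of 20887 genes named on the array. No measured value entered that rule, but earlier results of these data were known when it was set. They were read by 42 probes, and 4 of the genes had several. A gene was tested where a probe was well above background in the sample channel on at least 3 of 6 arrays, which held for 32 of the 38, and 28 of those 32 met it on all 6 arrays.

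The 6 two-colour arrays were 3 of Bdkrb2 knockout cells (KO) and 3 of wild-type cells (WT), all C57BL/6 and all from animals given a diet of 5% sodium, so every comparison is of genotypes under salt. KO kidneys were Hoxb7cre+; Bdkrb2f/f; R26RtdTomato, and WT kidneys carried Hoxb7cre+ and R26RtdTomato with Bdkrb2+/+ alleles. Kidneys were taken at postnatal day 1 and cells with both GFP and dsRED signal were collected by flow cytometry. Cre was driven by Hoxb7, so the deletion was limited to cells in which that promoter had been active, and the controls shared the Cre and the R26RtdTomato reporter. The replicates are biological by the series text, with no number of animals per sample. The labels describe matings of floxed parents, which yield no wild-type pups, so litter and genotype cannot be told apart. The Cy3 channel of every array held RNA of WT replicate 1 (WT1), so each value is a log2 ratio to WT1, and the WT1 array set that RNA against itself. No dyes were swapped.

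Hox genes encode homeodomain transcription factors that give cells a position along the body axis. In mammals they lie in 4 clusters, and genes at the same place in different clusters form 13 paralogue groups that stem from a common ancestor and often act redundantly. Hox proteins bind DNA together with TALE homeodomain partners of the Pbx, Meis and Pknox families. In the kidney, the Hox11 paralogues act in the metanephric mesenchyme with Eya1 and Pax2 to switch on Gdnf and Six2, the Hox10 paralogues act in the renal stroma, and Hoxb7 is a gene of the Wolffian duct and ureteric bud, from which the collecting duct grows.

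Promoter windows of 4 members are shown because these genes lie in 3 clusters, passed the test in opposite directions, and include neighbours that moved together. Each window is the 250 bases before the start of the gene in RefSeq, build GRCm38.p6, written 5′ to 3′ on the strand of the gene, with CpG dinucleotides in capitals. Hoxc4 and Hoxa11 were higher in KO, and the neighbours Hoxd8 and Hoxd9 were lower.
Hoxc4, chr15:103034145-103034394, plus strand: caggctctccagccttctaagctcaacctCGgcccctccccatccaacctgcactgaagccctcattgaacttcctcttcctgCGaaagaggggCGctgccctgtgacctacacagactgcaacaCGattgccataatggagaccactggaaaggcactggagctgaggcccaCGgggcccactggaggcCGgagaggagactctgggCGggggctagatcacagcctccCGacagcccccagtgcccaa
Hoxa11, chr6:52245811-52246060, minus strand: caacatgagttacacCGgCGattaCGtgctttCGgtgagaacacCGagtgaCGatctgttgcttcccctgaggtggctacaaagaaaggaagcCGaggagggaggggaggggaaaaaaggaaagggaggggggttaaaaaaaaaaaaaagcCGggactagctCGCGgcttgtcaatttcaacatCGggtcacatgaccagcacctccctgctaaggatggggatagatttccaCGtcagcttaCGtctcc
Hoxd8, chr2:74704365-74704614, plus strand: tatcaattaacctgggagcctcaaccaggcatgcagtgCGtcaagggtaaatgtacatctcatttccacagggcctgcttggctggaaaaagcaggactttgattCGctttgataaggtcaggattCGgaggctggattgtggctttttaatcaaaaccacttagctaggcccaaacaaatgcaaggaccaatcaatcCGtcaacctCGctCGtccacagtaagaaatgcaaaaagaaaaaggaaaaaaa
Hoxd9, chr2:74697513-74697762, plus strand: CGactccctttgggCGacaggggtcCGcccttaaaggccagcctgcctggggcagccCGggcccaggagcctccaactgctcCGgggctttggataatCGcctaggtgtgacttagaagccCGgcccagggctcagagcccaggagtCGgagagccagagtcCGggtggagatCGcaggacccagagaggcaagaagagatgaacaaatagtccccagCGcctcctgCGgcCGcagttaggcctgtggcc

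The RefSeq promoter table held 24 windows for 22 of the Hox genes. Their windows had a median of 12.5 CpG, against 6 over all 32851 windows of that length. Genes higher in KO had a median of 11.5 CpG and a GC content of 58.8% in 6 windows, and genes lower in KO a median of 12 CpG and 46.8% in 6 windows. This difference in GC content is a description and was not tested. Hoxd8 and Hoxd9, which fell together, differed in base composition, with 6 and 13 CpG and a GC content of 44.4% and 65.2%. On both strands, the Hox-Pbx motif TGATTNAT was found in 2 of the 24 windows (8.33%, against 2.82% of all windows), the Meis motif TGACAG in 2 (8.33% against 15.9%) and the homeodomain core TAATTA in 2 (8.33% against 4.84%). None of the 3 motifs was found in the 4 windows printed. No match of one motif overlapped a match of another in the Hox windows, and a match is not a bound site.

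The clusters went different ways. In KO cells 10 Hox genes rose and 8 fell, 18 of 32 tested (56.25%), where 35.3% of all 14755 genes tested were called. Of the tested Hox genes 31.25% were called higher and 25% lower, against 15.3% and 20.0% of all genes. The share called lower was thus near that of all genes. Cluster C held 5 of the genes that rose and none that fell, and cluster A held 4 that rose and none that fell. Cluster B held 4 that fell and none that rose, and cluster D held 4 that fell and 1 that rose. That 1 gene, Hoxd12, passed the filter only through the KO arrays, and Hoxc5 in cluster C also needed them to pass. Each difference is the KO mean minus the WT mean of the log2 ratios, given with limma's moderated standard error (SE, n = 3 arrays per group), and a gene is called at a Benjamini-Hochberg adjusted p under 0.05 over all genes tested. The median difference was 0.10 over the tested Hox genes and -0.02 over all genes. The 2 groups were fully apart for 22 of the 32, with KO above in 10 and below in 12, and over all genes they were apart for 52.1% (23.9% with KO above, 28.2% below).

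**Figure D1:**
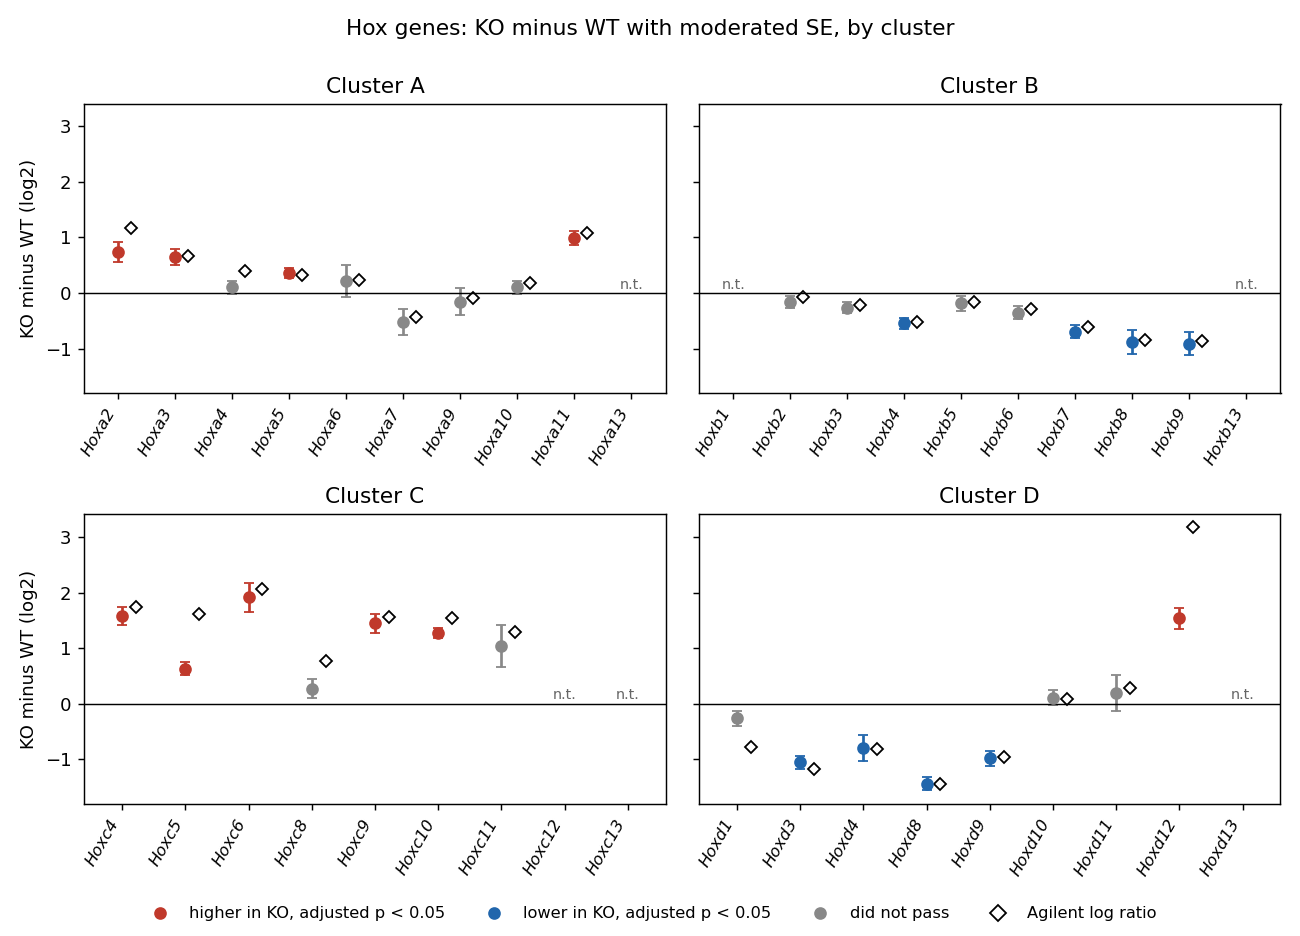
Difference between KO and WT (log2, vertical axis) for the Hox genes of each cluster in paralogue order, with the moderated SE (n = 3 arrays per group). Filled circles are coloured by call, diamonds give the same difference from Agilent's own log ratio, and n.t. marks the 6 genes not tested. All 7 tested genes of cluster C lie above 0 and all 8 of cluster B below.

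The centring of the arrays and their place on the slide bear on these counts. With each array centred on its median in place of loess, the median of all genes rose to 0.24, 74.3% of called genes were higher against 43.4% with loess, and the Hox counts became 11 higher and 3 lower (27.3% of all genes called, 20.3% higher). With the row of the slide as a block, 6 Hox genes were higher and 3 lower, and 14.9% of all genes were called (4.95% higher, 9.99% lower). All 3 KO arrays and WT1 lay in row 1 and the other WT arrays in row 2, so the value with that block equals KO minus WT1 alone, the only comparison within a row. Among the 28 Hox genes well above background on all 6 arrays 8 were higher and 8 lower, where 36.3% of all such genes were called (15.0% higher, 21.3% lower). Agilent's own log ratio gave 9 higher and 7 lower (33.8% of all genes called, 15.8% higher and 18.0% lower).

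Cluster C, on chromosome 15, held the largest set of increases. All 7 of its tested genes were above 0, in every one of the scalings tried, with a median of 1.27. Hoxc6 stood at 0.27, -0.86 and -0.66 on the WT arrays and at 1.54, 1.43 and 1.52 on the KO arrays, a 3.77-fold rise (1.91 ± 0.26, adjusted p = 0.0012). Its WT1 value lay above those of the other WT arrays, and against WT1 alone the difference was 1.23 (adjusted p = 0.00678).

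Hoxc4 rose 3.00-fold (1.58 ± 0.16, adjusted p = 0.00035), from 0.20, 0.01 and -0.12 in WT to 1.81, 1.75 and 1.29 in KO. Every KO array was above every WT array by more than 1 log2 unit. Hoxc9, which sets thoracic identity in motor neurons, stood at -0.01, -0.36 and -0.44 in WT and at 1.44, 1.22 and 0.86 in KO, a rise of 1.44 ± 0.18 (adjusted p = 0.000715). Hoxc10, one of the Hox10 paralogues, stood at -0.35, -0.45 and -0.44 in WT and 0.81, 0.89 and 0.89 in KO. It had the smallest adjusted p of the members (1.27 ± 0.09, adjusted p = 0.000185), and its arrays lay close together within each group.

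Hoxc5 rose by less on this scale, by 0.63 ± 0.12 (adjusted p = 0.00555), from 0.06, -0.22 and -0.28 to 0.56, 0.52 and 0.38. It was well above background on 2 WT and 3 KO arrays, with a weak WT signal of 1.96, 1.40 and 1.58 times the local background in Cy5. The WT arrays alone would not have met the filter, so the p of Hoxc5 gives limited support. The size of its rise depended on the processing, with 1.61 ± 0.26 from Agilent's log ratio and 0.86 ± 0.16 where the offset was 16 in place of 50. With the row as a block it was no longer called (0.42, adjusted p = 0.116).

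Hoxc11 and Hoxc8 were not called. Hoxc11 stood at 0.07, -0.28 and -0.35 in WT and at -0.16, 1.32 and 1.39 in KO (1.03 ± 0.38, adjusted p = 0.0678). KO replicate 1 lay among the WT arrays, and without it the difference was 1.54 (adjusted p = 0.000312). Hoxc8 was well above background on 1 WT and 2 KO arrays and differed by 0.27 ± 0.17 (adjusted p = 0.253). Its Cy5 signal was 1.18, 2.56 and 2.09 times the local background on the KO arrays. Without KO replicate 1, the weakest of these, Hoxc8 differed by 0.46 (adjusted p = 0.0163). That fit keeps the KO arrays that brought Hoxc8 through the filter, so its p supports nothing beyond that. Hoxc12 and Hoxc13, at the end of the cluster, did not rise well above background on the arrays and were not tested.

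Cluster B, on chromosome 11, lay below 0 in all 8 tested genes with loess normalisation, with a median of -0.45, while Hoxb2, Hoxb3 and Hoxb5 turned positive with median centring. Hoxb7, whose promoter drives the Cre in both groups, fell to 1.61-fold below WT (-0.69 ± 0.12, adjusted p = 0.00282). It stood at -0.09, 0.22 and -0.08 on the WT arrays against -0.72, -0.66 and -0.64 on the KO arrays, with no overlap. Hoxb9 fell by 0.91 on the log2 scale (SE 0.21, adjusted p = 0.0107), from -0.04, 0.57 and 0.17 to -1.0, -0.34 and -0.69. Its neighbour Hoxb8 was at 0.43, 0.46 and -0.12 in WT and at -0.91, -0.26 and -0.69 in KO (-0.88 ± 0.21, adjusted p = 0.0137). The 0.43 came from the WT1 array, which should read 0. The adjusted p of Hoxb8 was 0.0506 without WT replicate 1 and 0.0507 without WT replicate 2.

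The 3 KO values of Hoxb4, known for its role in blood stem cells, lay between -0.45 and -0.40, all below the WT values of 0.05, 0.19 and 0.10 (-0.54 ± 0.09, adjusted p = 0.00321). None of the 4 decreases was called with median centring or with the row as a block, where the adjusted p of Hoxb7 was 0.246 and 0.0619. Hoxb6 (-0.35 ± 0.12, adjusted p = 0.0541) and Hoxb3 (-0.26 ± 0.09, adjusted p = 0.0655) did not overlap between groups but were not called, although Hoxb6 was without KO replicate 3 (adjusted p = 0.0326). Leaving out KO replicate 1 brought Hoxb3 under the threshold (adjusted p = 0.0373), and a second Hoxb3 probe gave -0.03. Hoxb5 (-0.18 ± 0.14) and Hoxb2 (-0.15 ± 0.11) differed by little more than their SE. Hoxb1 and Hoxb13, the first and the last of the cluster, gave no signal well above background and were not tested.

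In cluster D, on chromosome 2, Hoxd3, Hoxd4, Hoxd8 and Hoxd9 fell. Hoxd12 was called higher, but it passed the filter only through the KO arrays. Hoxd8 had the largest decrease of the members, 2.70-fold (-1.43 ± 0.12, adjusted p = 0.00024), from 0.06, -0.16 and 0.02 in WT to -1.49, -1.62 and -1.27 in KO. Hoxd3, which patterns the first neck vertebrae, stood at -0.02, 0.23 and 0.10 in WT and at -0.84, -1.07 and -0.94 in KO (-1.05 ± 0.11, adjusted p = 0.000428). Hoxd9 was at -0.29, -0.13 and -0.07 in WT and -1.39, -1.09 and -0.95 in KO (-0.98 ± 0.14, adjusted p = 0.00123). The KO arrays lay below the WT arrays for each of these genes, and all 3 stayed called with the row as a block and with median centring.

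Hoxd4 was less certain. It stood at 0.67, 0.57 and 0.12 in WT and at -0.86, -0.12 and -0.04 in KO, and the WT1 array, which should read 0, was the highest of all. It fell by 0.79 on the log2 scale (SE 0.24, adjusted p = 0.0329), and was not called from Agilent's log ratio (adjusted p = 0.0657), without WT replicate 1 (0.105), without WT replicate 2 (0.0958) or with the row as a block (0.0944). Hoxd1 differed by -0.26 ± 0.13 (adjusted p = 0.159), and by -0.77 from Agilent's log ratio.

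At the other end of the cluster no gene was called lower. Hoxd12, a gene of the distal limb, was called higher but passed the filter only through the KO arrays. It stood at -0.06, 0.38 and -0.07 in WT and at 1.83, 1.79 and 1.24 in KO (1.54 ± 0.19, adjusted p = 0.000806). It was well above background on 1 WT array and all 3 KO arrays, and its Cy3 reference signal on 1 of the 6 arrays, with a Cy5 signal of 1.19, 1.54 and 1.18 times the local background in WT and of 8.57, 7.75 and 4.83 times in KO. The filter let it in because it was high in KO, so its p supports nothing beyond that. The size of its rise is uncertain, and Agilent's log ratio gave 3.17 ± 0.76. Hoxd10 did not differ beyond its error (0.11 ± 0.14), and Hoxd13 stayed at background on all 6 arrays.

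Hoxd11, one of the Hox11 paralogues, was read by 2 probes with different patterns. The brighter probe gave 0.26, 0.16 and 0.12 in WT and -0.48, 0.79 and 0.82 in KO (0.19 ± 0.32, adjusted p = 0.663). The other gave -0.05, -0.25 and -0.31 in WT and 0.51, 0.27 and 0.38 in KO, a difference of 0.59 ± 0.12 that passed over all probes (adjusted p = 0.00679). The signs were opposite on all 3 WT arrays and on KO replicate 1, where the probes differed most and the first lay below all WT arrays and the second above them.

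In cluster A, on chromosome 6, Hoxa2, Hoxa3, Hoxa5 and Hoxa11 rose. Hoxa11, a Hox11 paralogue, rose 1.98-fold (0.98 ± 0.13, adjusted p = 0.000903), from 0.15, 0.14 and -0.12 in WT to 0.90, 1.21 and 1.01 in KO. The antisense RNA Hoxa11os, read from the same locus by its own probe, went from 0.11, 0.18 and -0.06 to 1.34, 1.10 and 1.15 (1.12 ± 0.11, adjusted p = 0.000354). Whether each probe reads a single strand was not tested.

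Hoxa2, a gene of the hindbrain and the second pharyngeal arch, stood at 0.00, 0.03 and -0.37 in WT and at 0.96, 0.38 and 0.54 in KO (0.74 ± 0.18, adjusted p = 0.0143), and Agilent's log ratio put the difference at 1.16 ± 0.29. Hoxa3, needed for the thymus and parathyroid, stood at 0.07, -0.08 and -0.24 in WT and at 0.33, 0.70 and 0.67 in KO (0.65 ± 0.14, adjusted p = 0.00803). Hoxa5, a gene of lung and airway development, rose by 0.36 ± 0.09 (adjusted p = 0.0192), with WT values of 0.14 to 0.15 and KO values of 0.46 to 0.58. None of these 3 stayed called with the row as a block, and Hoxa5 was not called from Agilent's log ratio either (adjusted p = 0.052). Without WT replicate 3 the adjusted p was 0.0606 for Hoxa2 and 0.0748 for Hoxa5, and without WT replicate 1 it was 0.0621 for Hoxa5.

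The other tested genes of cluster A were not called. Hoxa4 and Hoxa10 each differed by 0.10 (SE 0.12 and 0.11). Hoxa6 (0.22 ± 0.29), Hoxa7 (-0.51 ± 0.24) and Hoxa9 (-0.15 ± 0.24) had the widest errors of the cluster, and in each KO replicate 1 lay away from the other KO arrays. Hoxa13 stayed at background on all 6 arrays with both of its probes. In RefSeq the span of Hoxa3 overlaps those of Hoxa4, Hoxa5 and Hoxa6, Hoxb3 overlaps Hoxb4, Hoxd3 overlaps Hoxd4 and Hoxd10 overlaps Hoxd11, so a probe in a shared stretch could read either gene.

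**Figure D2:**
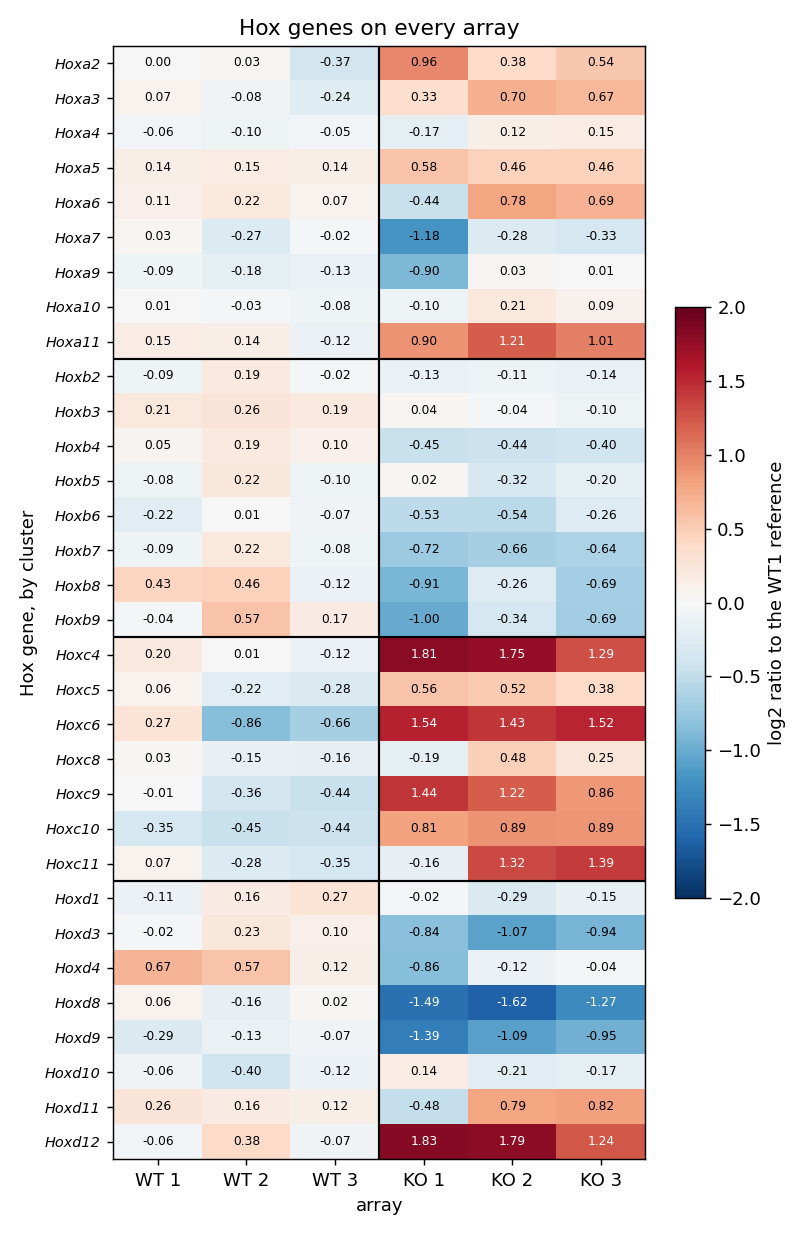
Log2 ratio to the WT1 reference (colour scale and printed value) of the 32 tested Hox genes (rows, grouped by cluster) on the 3 WT and 3 KO arrays (columns). The KO columns are red in most of cluster C and blue in Hoxd3, Hoxd8 and Hoxd9, and the KO 1 column departs from the other KO columns for Hoxa6, Hoxa7, Hoxa9, Hoxc11 and Hoxd11.

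KO replicate 1 stood apart for part of the members. For 5 of the 32 genes its ratio lay more than 0.8 below the mean of the other KO arrays while those lay within 0.3 of each other. Hoxa6 was at -0.44 against 0.78 and 0.69, Hoxa7 at -1.18 against -0.28 and -0.33, and Hoxa9 at -0.90 against 0.03 and 0.01. A second Hoxa9 probe gave the same pattern, at -0.88, 0.08 and -0.08. Hoxc11 and the brighter Hoxd11 probe, above, completed the set. Over all genes this held for 534 (3.62%), and no other array had more than 73 genes below its group in this way. Without KO replicate 1, 14 Hox genes were higher and 9 lower, where 38.7% of all genes were called (16.1% higher, 22.6% lower). Hoxa6 (0.61), Hoxc8, Hoxc11 and Hoxd11 (0.62) then joined the genes that rose, and Hoxb3 (-0.29) those that fell. Hoxc8 needed its KO arrays to pass the filter, so its call there adds no support. What set this array apart was not tested.

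By paralogue group, the members of a group often did not move together. The Hox11 paralogues all lay above 0, with Hoxa11 called, and so did the Hox10 paralogues, with Hoxc10 called. Among these, Hoxa10 (0.10 ± 0.11), Hoxd10 (0.11 ± 0.14) and Hoxd11 (0.19 ± 0.32, brighter probe) lay within their SE of 0. The sign of Hoxd10 and of Hoxd11 reversed in some of the alternatives given below. In groups 3, 4 and 9 called genes went in opposite directions. In group 4 Hoxc4 rose while Hoxb4 and Hoxd4 fell and Hoxa4 was not called. In group 9 Hoxc9 rose while Hoxb9 and Hoxd9 fell, and in group 3 Hoxa3 rose while Hoxd3 fell. With the row as a block only group 9 kept opposite calls (Hoxc9 and Hoxd9), as the adjusted p was 0.139 for Hoxa3, 0.0664 for Hoxb4, 0.0944 for Hoxd4 and 0.176 for Hoxb9. Of the 3 tested genes of group 8, Hoxb8 and Hoxd8 fell.

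The difference between paralogues was taken on each array and compared between KO and WT for all 32 pairs of tested paralogues in 10 groups. The gap from Hoxc9 to Hoxd9 was 0.28, -0.23 and -0.37 in WT and 2.82, 2.31 and 1.82 in KO, a shift of 2.42. The gap from Hoxc4 to Hoxd4 shifted by 2.38, from Hoxb9 to Hoxc9 by -2.36, from Hoxb4 to Hoxc4 by -2.13 and from Hoxa3 to Hoxd3 by 1.70. These 5 pairs are the ones whose genes were called in opposite directions, so their gaps restate the calls. With 3 arrays against 3 the smallest 2-sided p of an exact permutation test is 0.1 (0.133 after Benjamini-Hochberg adjustment over the 32), so no pair could pass on its own. These 5 pairs reached it, as did every pair whose gaps did not overlap between the groups, 24 of the 32. The share of other gene pairs apart in this way was not taken, and 52.1% of all single genes were apart. The count of pairs thus shows nothing particular to paralogues.

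**Figure D3:**
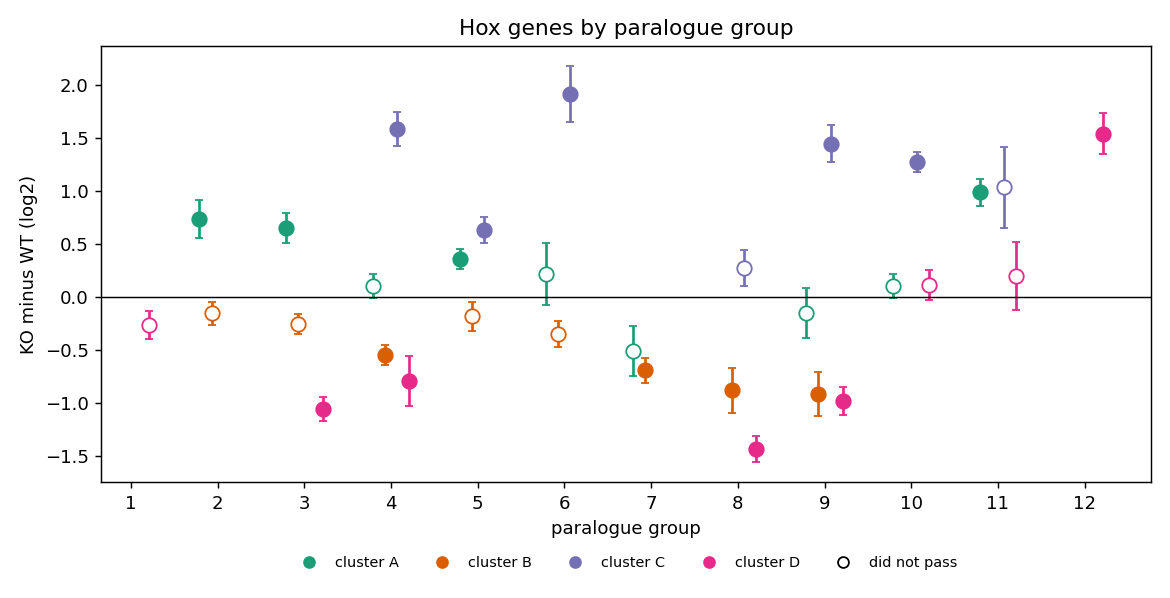
Difference between KO and WT (log2, vertical axis) of the tested Hox genes by paralogue group (horizontal axis), coloured by cluster, with the moderated SE (n = 3 arrays per group); open circles did not pass the test. In groups 4 and 9 the gene of cluster C lies above 1 and the called genes of clusters B and D below 0.

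The TALE partners of Hox proteins rose or were not called. Of 9 tested, 6 were higher and none lower, with a median of 0.53, where 15.3% of all genes tested were called higher. Meis1 rose by 2.94 ± 0.24 (adjusted p = 0.000223), from 0.29, -0.14 and -0.80 in WT to 2.79, 2.76 and 2.61 in KO. Meis2 rose by 1.43 ± 0.20, Meis3 by 1.11 ± 0.18 and Pknox2 by 0.77 ± 0.14. With the row as a block, Meis1 and Meis2 were the TALE genes called, both higher, where 14.9% of all genes were called (4.95% higher).

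Of the 5 partners and targets of the Hox11 proteins, 3 rose, where 15.3% of all genes tested were called higher. Gdnf, the ligand that draws out the ureteric bud, rose by 3.98 ± 0.24 (adjusted p = 0.000185), and its values of 4.19, 4.41 and 3.51 in KO stood far from 0.03, 0.37 and -0.22 in WT. The nephron progenitor factor Six2 rose by 2.56 ± 0.25 and the integrin gene Itga8 by 2.50 ± 0.22. Eya1 (0.22 ± 0.09, adjusted p = 0.103) and Pax2 (0.29 ± 0.16, adjusted p = 0.207), which act with the Hox11 proteins, did not pass. Among 10 known upstream regulators of Hox genes, 6 were tested and 3 rose, against the same 15.3% of all genes. Among these were the retinoic acid receptor gene Rarb (0.83 ± 0.12) and the Geminin gene Gmnn (0.50 ± 0.10). Gmnn was no longer called with the row as a block. Of 11 noncoding RNAs of the clusters, 2 were on the array under a name, Hoxa11os and Hoxd3os1 (-0.44 ± 0.18, adjusted p = 0.0907).

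Markers of kidney cell types also differed between KO and WT, where 15.3% of all genes tested were called higher and 20.0% lower. The 21 tested collecting duct markers of 22 all fell, with a median of -1.90, and the remaining one, Scnn1g, stayed at background throughout. Their summed Cy5 signal was 155972 to 175436 in WT and 40455 to 56608 in KO. Of 12 nephron progenitor markers 11 rose and none fell (median 2.28), with summed signals of 16671 to 22169 in WT and 53732 to 82838 in KO, and of 14 tested stroma markers 10 rose and none fell (median 1.96), with 11975 to 32438 and 69485 to 87910. Meis1 is among these stroma markers, and Gdnf, Six2, Itga8 and Eya1 among the nephron progenitor markers, so those values are shared between lists. The part of these markers in the Hox differences was not tested, and in sorted bulk cells a change in the mix of cells and a change of RNA per cell cannot be told apart.

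The WT arrays differed among themselves in the stroma markers. Their median was 0.08 on WT1 and -0.75 and -1.08 on the other WT arrays. Cluster C had a median of 0.06 on WT1, -0.28 on WT replicate 2 and -0.35 on WT replicate 3, and of 0.81, 1.22 and 0.89 on the KO arrays. Cluster B had medians of -0.06, 0.22 and -0.05 in WT and of -0.49, -0.33 and -0.33 in KO. Those of cluster D lay at -0.04, 0.16 and 0.06 on the WT arrays and at -0.66, -0.25 and -0.16 on the KO arrays, while the medians of cluster A overlapped between the groups.

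**Figure D4:**
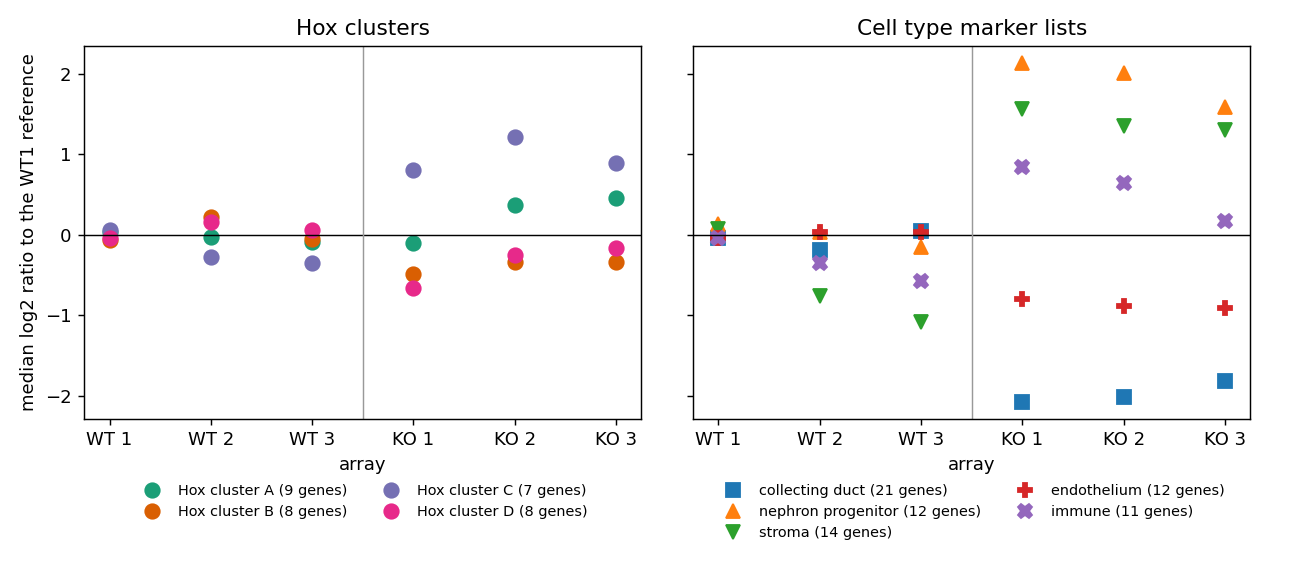
Median log2 ratio to the WT1 reference (vertical axis) on each of the 6 arrays (horizontal axis) for the tested genes of each Hox cluster (left) and of 5 cell type marker lists (right). On the KO arrays cluster C lies between 0.81 and 1.22 and the collecting duct markers between -2.07 and -1.81.

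The arrays set the precision of these values. Each held 62976 spots with none saturated, and 49.8% to 52.7% of spots on WT arrays and 56.6% to 57.5% on KO arrays were well above background in Cy5. The Hox probes above background numbered 32 to 35 of 42 per array. On the WT1 array, where both channels held the same RNA, the ratio lay within 0.3 of 0 for 29 of the 32 Hox genes. It was -0.35 for Hoxc10, 0.43 for Hoxb8 and 0.67 for Hoxd4. For the 6 untested members, Cy5 lay at 0.870 to 1.41 times its local background.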

How the data were processed

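RNA was measured on 6 two-colour Agilent arrays, 3 KO and 3 WT, with the sample in Cy5 and WT replicate 1 in Cy3. The deposited files hold spot and background intensities, per the file headers written by Agilent Feature Extraction 10.7.3.1 (the submitters' processing notes name version 6.1), and a log10 ratio of background-subtracted, dye-normalised Cy5 over Cy3. Log10 ratios in the deposited series matrix lay within 0.00499 of the scanner values, with a median of 0 on every array. Whether the authors centred or filtered further is unknown.

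Median intensities were corrected by normexp (offset 50), loess-normalised within arrays with controls at weight 0, and converted to log2 ratios. Flagged spots (196 to 403 per array) were left out and spots of a probe averaged. The brightest probe well above background in Cy5 on at least 3 of 6 arrays stood for a gene. Names came from RefSeq, assembly GRCm38.p6. The test was limma 3.58.1 under R 4.3.3 (lmFit and eBayes), 2-sided, first tested on simulated data. It had 4 residual and 3.95 prior degrees of freedom, and p was adjusted by Benjamini-Hochberg over 14755 genes. P-values measure the spread between these arrays.

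All members are accounted for. The rule asked for every array's values of called members that changed by at least 1 on the log2 scale, of members whose probes disagree in sign (none did) and of Hoxb7, and for up to 4 called genes per pathway list, of which some are not reported here. Values of other members on every array were added after they were seen. Members and lists were chosen with earlier results of these data known. Alternatives were other scalings, filters, probe rules, blocks and leaving out each array.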

Additional observations from a re-analysis of the deposited data

How the results depend on the processing

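Across 20 alternatives, none of the 18 called Hox genes changed sign. Many of these could not change it, as each called gene had a single probe. Other filters and probe rules, the replicate block, limma's trend and robust options and Aquantile scaling leave such a difference as it is. The series matrix values nearly repeat Agilent's log ratio. Hoxa11, Hoxc4, Hoxc6, Hoxc9, Hoxc10, Hoxd3, Hoxd8 and Hoxd9 stayed called in every alternative, while Hoxa5 and Hoxd4 each lost the call in 6 and Hoxb8 in 4. Hoxd12 passed the filter only through the KO arrays and was not tested under the filter on all 6 arrays. That it stayed called in the other alternatives adds no support. With the array row as a block, 6 Hox genes were higher, 3 were lower and 2204 genes were called in all. With median centring, 3 Hox genes were lower. Leaving out each array in turn gave 8 to 14 Hox genes higher, 6 to 9 lower and 3243 to 5715 genes called in all, and 3243 came without WT replicate 3. Only genes that were not called reversed. With median centring Hoxa9 was at 0.13, Hoxb2 at 0.15, Hoxb3 at 0.039 and Hoxb5 at 0.11. With array weights Hoxa9 was at 0.079 and Hoxd10 at -0.0091. Those weights called 25 Hox genes and 45.0% of all genes, where 35.3% of all genes were called without them. With the row block Hoxd10 was at -0.018. Leaving out each array gave ranges of -0.0020 to 0.61 for Hoxa6 (lowest without KO replicate 2), -0.31 to 0.16 for Hoxa9 (highest without KO replicate 1), -0.0031 to 0.18 for Hoxd10 (lowest without KO replicate 1) and -0.028 to 0.62 for Hoxd11, which was at -0.012 without KO replicate 2 and lowest without KO replicate 3. The cause of these reversals was not tested. Loess followed by Aquantile scaling leaves ratios as they are by construction. Replicate numbers did not pair the samples (correlations of deviations 0.135, 0.083 and 0.201), and with the replicate number as a block 10 Hox genes were higher and 8 lower, with 5130 genes called in all. Hoxa4, Hoxc5, Hoxc8 and Hoxd12, weak on the WT arrays, are limited by signal over background.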

Other observations

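Genes of the chromatin complexes that keep Hox clusters silent or active were measured on the same arrays. Of 15 tested polycomb genes 6 rose and 1 fell, with a median of 0.26. Of all genes tested 35.3% were called, 15.3% higher and 20.0% lower. Phf19, a PRC2-associated factor, rose by 1.58 ± 0.28 (adjusted p = 0.0034), the PRC1 subunit gene Cbx2 by 0.82 ± 0.15, the histone methyltransferase gene Ezh2 by 0.68 ± 0.14 and Bmi1 by 0.54 ± 0.12. With the array row as a block, 2 polycomb genes were called, both higher. With that block 14.9% of all genes were called, 4.95% higher and 9.99% lower. Of 8 tested genes of the trithorax and MLL complexes 1 rose, Rbbp5 (0.39 ± 0.11, adjusted p = 0.0245), which was not called with that block (adjusted p = 0.227). Markers of endothelium and immune cells moved too: 10 of 12 endothelium markers fell and none rose (median -1.0), and of 11 immune markers 7 rose and 1 fell (median 0.94). With the row as a block 8 endothelium markers stayed lower, and all 8 immune calls were lost. Their part in the Hox differences was not tested.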
